A study of Homo sapiens with 6 samples.

Results

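The transcripts of the enzymes that write, copy and oxidise DNA methylation were examined in MOLT-4, a human leukemia cell line of T-cell origin. The 7 genes were chosen by name: DNMT1, UHRF1, DNMT3A, DNMT3B, TET1, TET2 and TET3, out of 60640 gene identifiers in the tables. Polyadenylated RNA was sequenced in 3 wild type libraries, whose genotype label reads CRISPR KO control, and in 3 IK-KO libraries, named so by their labels, from cells edited with CRISPR at IKZF1, which encodes IKAROS. Both came from MOLT-4 grown in RPMI medium with serum, and the study bought the edited cells and their control from a supplier. The labels name no clone and do not state whether replicates were separate cultures. Other differences between the lines thus cannot be told apart from the edit. The p-values therefore reflect the spread among these libraries alone, which may be technical.

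Cytosine methylation at CpG sites is laid down by DNMT3A and DNMT3B, the de novo methyltransferases. After replication, UHRF1 recognises the hemimethylated CpG sites and brings in DNMT1, which restores the mark on the new strand. TET1, TET2 and TET3 oxidise methylcytosine to hydroxymethylcytosine and further forms, which are then diluted by replication or removed by base excision repair. In blood cells DNMT3A and TET2 are best known as genes that are recurrently mutated in leukemia, and IKAROS is a DNA-binding regulator of lymphoid genes that recruits histone-modifying enzymes.

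Of the 7 genes, DNMT3B rose and DNMT1 fell in the libraries labelled IK-KO, and no other passed the test. DNMT3B was 1.78-fold higher (12.1 ± 0.575 against 6.79 ± 0.80 FPKM, SD, n = 3) and DNMT1 fell by 19.3% (64.7 ± 4.59 against 80.2 ± 1.54 FPKM, SD, n = 3). The unit, FPKM, divides the fragments of a gene by its transcript length and by the mapped fragments of the library, so that levels can be compared between genes. DNMT3A and TET2 had higher means in the libraries labelled IK-KO without passing the test, and TET1 and TET3 overlapped between groups. UHRF1 could not be tested, because its estimate is marked as failed in all libraries but wild type replicate 3.

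Changes were tested with limma on log2(FPKM + 1) over the 12652 genes with a mean of at least 1 FPKM, and a gene was called at an adjusted p under 0.05. All 7 genes had a mean above that minimum, and 6 entered the fit. Of these 6, 2 were called, where 19.9% of all tested genes were called (10.1% higher and 9.75% lower). The libraries of one group lay wholly above or below those of the other in 4 of the 6, against 39.0% of all tested genes. In 3 of them IK-KO lay above (20.9% of all tested genes) and in 1 below (18.1%). As bulk values, they cannot tell fewer cells with a transcript from less RNA per cell.

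FPKM summed to between 699352 and 738051 per library, of which the mitochondrial genome held between 13.0% and 14.4%. Between 12446 and 12692 genes had at least 1 FPKM. Wild type replicate 3 had the lowest sum and was the only library with rows of status HIDATA (20 rows). The targeted gene, IKZF1, rose: its wild type values were 134, 124 and 105 FPKM, against 207, 260 and 207 FPKM in IK-KO (log2 change 0.89, limma adjusted p 0.00295). The study's methods state that the knockout was checked by PCR and western blot. Neither can be read from gene-level RNA, so the group is named by its label throughout. Of 8 genes listed as markers of T-lineage or leukemic T cells, 6 had at least 1 FPKM in every library. The sum of all 8 ranged from 429 to 454 FPKM in wild type and from 443 to 457 FPKM in IK-KO. LCK and ZAP70 held most of it, at means of 216 and 131 FPKM in wild type and 227 and 162 FPKM in IK-KO. The sum thus says little about the others: CD4, CD5, CD7 and TAL1 were called lower and ZAP70 and PTCRA higher. CD4 was at 0.384 ± 0.117 FPKM in IK-KO (SD, n = 3), under the minimum of 1 FPKM. It entered the test through its wild type values (mean 2.76 FPKM). The markers of B cells, myeloid cells, erythroid cells and fibroblasts each summed to at most 0.607 FPKM in any library, and HBB, EPCAM, KRT5 and COL1A2 were listed at 0 in all 6.

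The reference sequence before the canonical transcript start of DNMT1 is shown, since DNMT1 was called and the regulator under study binds DNA. DNMT1 (ENSG00000130816.16) spans chromosome 19 from 10133345 to 10231286 (minus strand), and DNMT3B (ENSG00000088305.18) spans chromosome 20 from 32762385 to 32809356 (plus strand, GRCh38, counted from 1). The 250 bases before the first base of the GENCODE canonical transcript of DNMT1 were read from GRCh38, at chr19:10194954-10195203 on the minus strand. They lie inside the span of DNMT1, which on the minus strand begins at 10231286. The sequence is thus not the one before the outermost start of the gene as listed. The letters GGGAA, the core that IKAROS recognises, were searched on both strands, and capitals mark each match (GGGAA, or TTCCC where it lies on the other strand).
DNMT1: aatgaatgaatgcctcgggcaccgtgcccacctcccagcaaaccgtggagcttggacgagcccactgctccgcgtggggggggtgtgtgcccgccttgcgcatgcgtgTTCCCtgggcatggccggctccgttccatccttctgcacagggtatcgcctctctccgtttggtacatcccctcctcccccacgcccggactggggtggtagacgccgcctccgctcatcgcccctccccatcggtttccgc

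These 250 bases hold 1 match and 21 CpG. Over windows of 300 bases (250 before and 50 after the canonical transcript start), DNMT1, UHRF1, DNMT3A, TET1 and TET3 held the letters at least once and TET2 did not. Such matches are common: 65.0% of 35116 RefSeq promoter windows of the same length held the letters (GRCh38.p14). The number of CpG in the 300 bases of these 6 genes ranged from 10 at TET1 to 46 at DNMT3A, with a median of 14 over all RefSeq windows. A match is a run of letters and not evidence of binding.

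Ordered by mean level, UHRF1 was highest, followed by DNMT1, DNMT3A, DNMT3B, TET3, TET2 and TET1. The place of UHRF1 rests on listed values, of which only 1 was marked OK (125 FPKM, wild type replicate 3). DNMT1 had a mean of 72.5 FPKM over the 6 libraries, a level that 9.87% of the tested genes reached. DNMT3A had 26.0 FPKM and DNMT3B 9.44 FPKM. The TET genes lay lower, with TET3 at 6.86, TET2 at 1.87 and TET1 at 1.52 FPKM. The level of TET1 was reached by 92.4% of the tested genes, so TET1 and TET2 were near the bottom of what was tested.

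The order was not firm at every step. In wild type, DNMT3B ranged from 5.87 to 7.34 FPKM and TET3 from 6.501 to 7.15 FPKM, so these neighbours could not be separated. In the libraries labelled IK-KO, DNMT3B ranged from 11.5 to 12.7 FPKM and lay above every TET3 value (6.33 to 7.19 FPKM). TET2 and TET1 overlapped in wild type (1.51 to 1.80 and 1.47 to 1.71 FPKM). They were apart in IK-KO (1.89 to 2.36 and 1.32 to 1.58 FPKM), although the confidence bounds of TET2 reached down to 0.912 FPKM there.

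**Figure D1:**
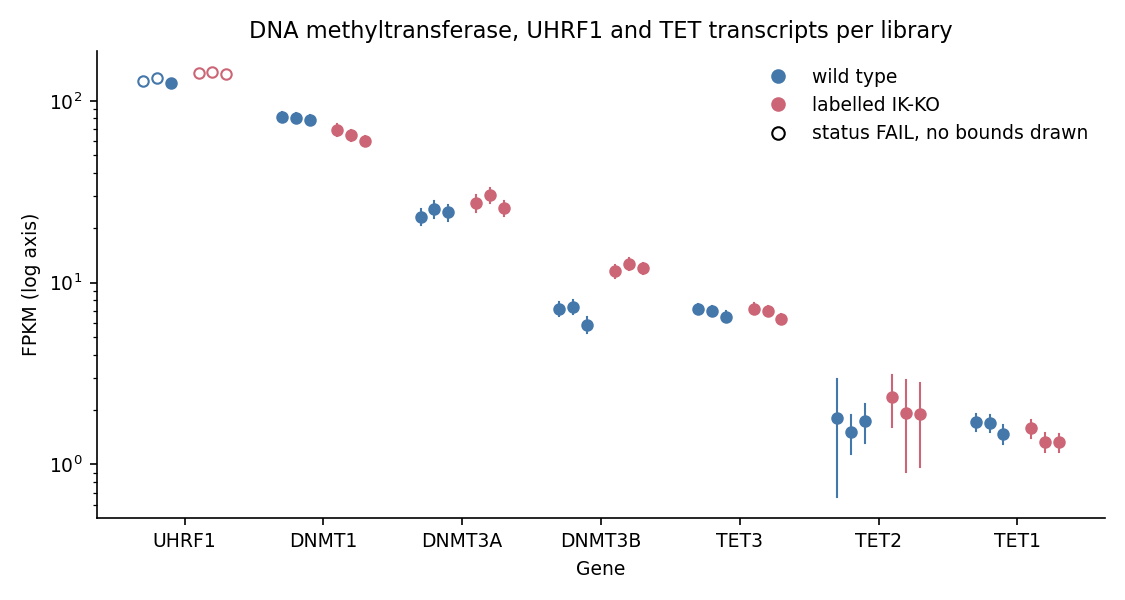
FPKM of each gene (log axis) in the 3 wild type libraries (blue) and the 3 libraries labelled IK-KO (red), with the authors' confidence bounds as vertical lines. Open circles are UHRF1 values whose estimate is marked FAIL; DNMT3B separates by group, at 5.87 to 7.34 against 11.5 to 12.7 FPKM, and the bounds are widest for TET2.

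The copying of methylation at replication was compared first. For DNMT1, the maintenance methyltransferase, wild type replicates 1 to 3 held 81.5, 80.6 and 78.5 FPKM, and IK-KO replicates 1 to 3 held 69.4, 64.7 and 60.2 FPKM. Every IK-KO value lay below every wild type value. The log2 change was −0.31 (SE 0.06, 95% interval −0.45 to −0.16, limma adjusted p 0.0143). A change at least this large in either direction was seen in 29.2% of the tested genes, so it was modest among the differences between these lines. The authors' bounds of IK-KO replicate 1 (64.0 to 74.8 FPKM) overlapped those of wild type replicate 3 (73.3 to 83.7 FPKM).

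DNMT1 lost its call in 2 of 15 alternative ways of processing the values. Without wild type replicate 1 the change was −0.30 (limma adjusted p 0.0526). The 20 nearest tested genes on chromosome 19, within 690 kb, had a median log2 change of −0.10, with 3 of them called lower and 0 higher. With that median removed the change of DNMT1 was −0.21 (limma adjusted p 0.0594, range over its alternatives 0.00847 to 0.0594).

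UHRF1 (ENSG00000276043.5, chromosome 19, 4903080 to 4962154, plus strand) encodes the factor that guides DNMT1 to newly replicated DNA. Its listed values were 129, 134 and 125 FPKM in wild type replicates 1 to 3, against 141, 144 and 139.7 FPKM in IK-KO replicates 1 to 3. The listed values did not overlap, with the libraries labelled IK-KO above, the opposite side from DNMT1. However, 5 of the 6 carry the status FAIL, with bounds from 0 to between 5.27 and 5.88 FPKM that do not contain the listed value. The only estimate marked OK, 125 FPKM in wild type replicate 3, had bounds of 119.8 to 130.4 FPKM. With the listed values entered as they stand, the log2 change was 0.13 (95% interval 0.03 to 0.24) and was not called (limma adjusted p 0.0857). These values are thus a description, and no comparison of UHRF1 between groups rests on estimates marked OK.

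The de novo enzymes were compared next. In wild type replicates 1 to 3, DNMT3B stood at 7.16, 7.34 and 5.87 FPKM, and in IK-KO replicates 1 to 3 it stood at 11.5, 12.7 and 12.0 FPKM. All 3 IK-KO libraries were higher than all 3 wild type libraries, and the authors' bounds were also apart, reaching down to 10.7 FPKM in IK-KO and up to 7.99 FPKM in wild type. The log2 change was 0.75 (SE 0.10, 95% interval 0.52 to 0.99, limma adjusted p 0.00289). Only 7.81% of the tested genes had a change as large in either direction. The call held in each of the 15 alternatives, with log2 changes from 0.67 to 0.83.

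The change of DNMT3B exceeded that of all 20 tested genes around it. These 20 neighbours on chromosome 20, over 2053 kb, had a median log2 change of −0.07, with 1 called higher and 2 lower. With that median removed the change of DNMT3B was 0.82. No other gene in the tables overlapped the position of DNMT3B. The genes that overlap DNMT1 were S1PR2, at a mean of 0.258 FPKM, and MIR4322, listed at 0. None of the genes overlapping the 7 positions reached a mean of 1 FPKM over all 6 libraries. The highest mean among them was that of COX20P1, a processed pseudogene overlapping TET1 on the same strand (0.576 FPKM). Its signal came only from IK-KO replicate 1 (0.80 FPKM) and IK-KO replicate 3 (2.65 FPKM), with every other library listed at 0. Whether this overlap affects the TET1 values was not tested.

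**Figure D2:**
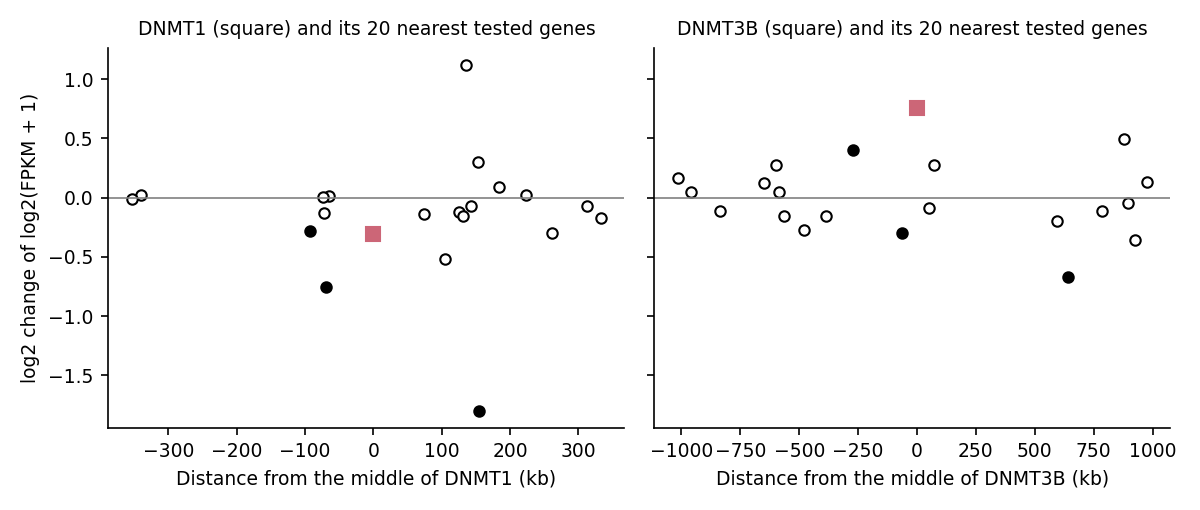
Log2 change of DNMT1 (left) and DNMT3B (right), drawn as red squares, and of the 20 tested genes nearest to each (circles, filled where called), against the distance from the middle of the gene in kb. DNMT3B, at 0.75, lies above all of its 20 neighbours, whereas DNMT1, at −0.31, lies among neighbours with a median of −0.10.

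DNMT3A (ENSG00000119772.16, chromosome 2, 25227855 to 25342590, minus strand), the other de novo enzyme, had wild type values of 23.0, 25.3 and 24.3 FPKM, against 27.4, 30.2 and 25.6 FPKM in IK-KO. The groups did not overlap, by a small margin. The log2 change was 0.19 (SE 0.08, limma adjusted p 0.143), and it was not called in any of the 15 alternatives (adjusted p 0.0551 to 0.339). The interval of the change, 0.003 to 0.37 before adjustment, holds changes from almost none to well below that measured for DNMT3B.

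Ratios within each library describe how the 3 methyltransferases stood to each other. DNMT1 exceeded the sum of DNMT3A and DNMT3B 2.71-fold, 2.47-fold and 2.601-fold in wild type, and 1.78-fold, 1.51-fold and 1.599-fold in IK-KO. The mean ratio was 2.59 ± 0.118 and 1.63 ± 0.141 (SD, n = 3), with no overlap. DNMT3B made up 21.9% ± 2.21 of the de novo sum in wild type and 30.4% ± 1.37 in IK-KO (SD, n = 3). The sum of all 3 was 111 ± 2.31 and 105 ± 5.83 FPKM (SD, n = 3). Its IK-KO values all lay below its wild type values, but the sums of IK-KO replicates 1 and 2 (108 FPKM each) were close to that of wild type replicate 3 (109 FPKM). These ratios were not tested, as they are built from genes already compared above.

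**Figure D3:**
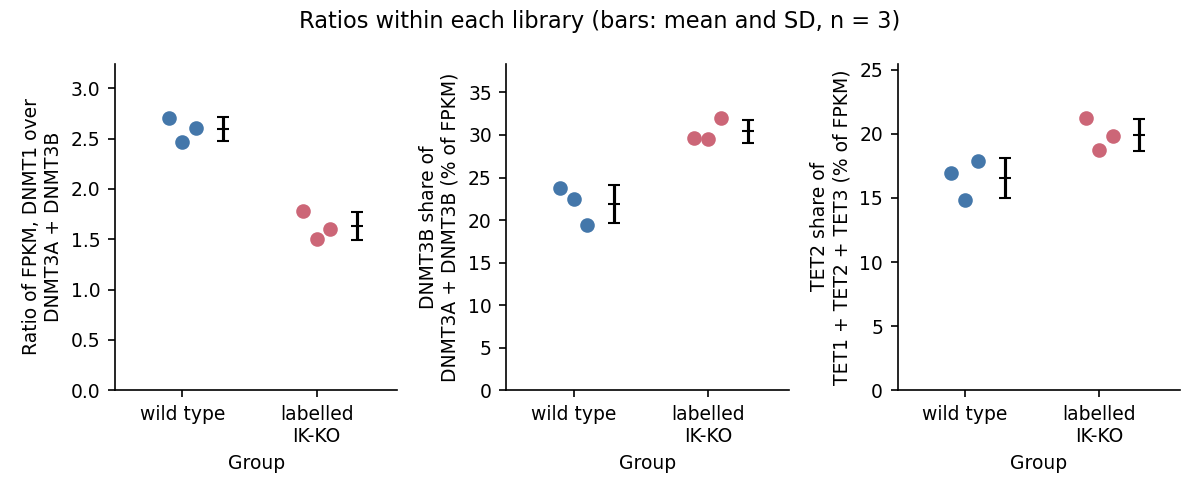
Ratio of DNMT1 to the de novo sum (left), share of DNMT3B in that sum (middle, percent) and share of TET2 in the TET sum (right, percent) in each library, with the mean and SD of 3 libraries beside the points. The first ratio is 2.47 to 2.71 in wild type and 1.51 to 1.78 in IK-KO.

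The oxidising enzymes showed no called change. TET3 (ENSG00000187605.15, chromosome 2, 73986404 to 74108176, plus strand) had values of 7.15, 7.01 and 6.501 FPKM in wild type and 7.19, 7.004 and 6.33 FPKM in IK-KO. The groups overlapped, with the third replicate the lowest in each. Its log2 change was −0.01, with a 95% interval of −0.22 to 0.20 (limma adjusted p 0.955). TET3 was the main TET transcript and made up 67.6% ± 0.941 of the TET sum in wild type and 66.4% ± 1.85 in IK-KO (SD, n = 3).

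TET2 (ENSG00000168769.13, chromosome 4, 105145875 to 105279816, plus strand) reached 1.80, 1.51 and 1.73 FPKM in wild type, and 2.36, 1.92 and 1.89 FPKM in IK-KO. The groups did not overlap, but the bounds of single libraries were wide, from 0.665 to 2.94 FPKM in wild type replicate 1, and those of the 2 groups overlapped. The log2 change was 0.19 (95% interval −0.14 to 0.52, limma adjusted p 0.405). Its share of the TET sum was 16.5% ± 1.56 in wild type and 19.9% ± 1.25 in IK-KO (SD, n = 3).

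TET1 (ENSG00000138336.9, chromosome 10, 68560337 to 68694487, plus strand) reached 1.71, 1.69 and 1.47 FPKM in wild type, and 1.58, 1.33 and 1.32 FPKM in IK-KO. IK-KO replicate 1 lay within the wild type range and the other 2 below it. The log2 change was −0.12 (95% interval −0.46 to 0.22, limma adjusted p 0.609). For both TET1 and TET2 the added pseudocount of 1 shrinks a change, as their levels are near 1 FPKM. With a pseudocount of 0.1 both remained uncalled. The TET sum was 10.2 ± 0.483 FPKM in wild type and 10.3 ± 0.792 FPKM in IK-KO (SD, n = 3).

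**Figure D4:**
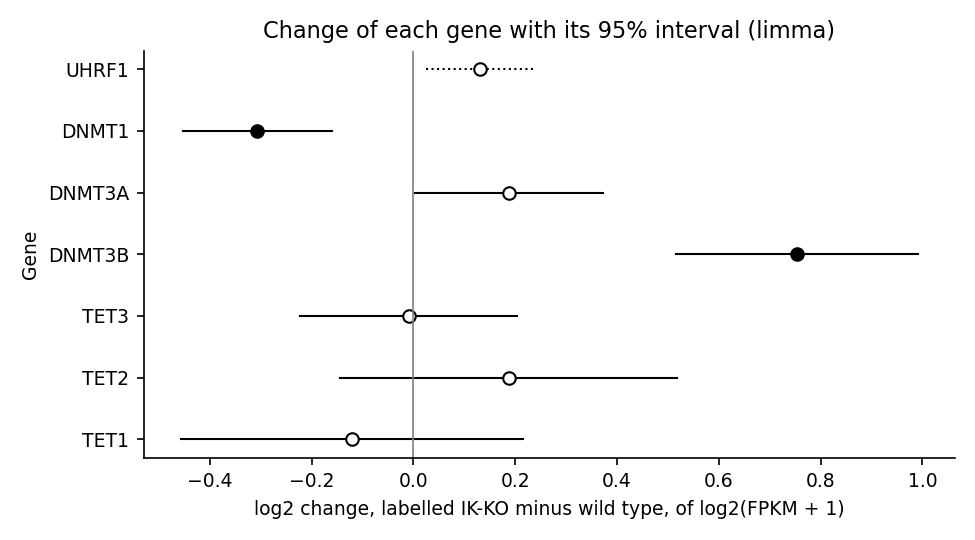
Log2 change of each gene (labelled IK-KO minus wild type, on log2(FPKM + 1)) with its 95% interval from limma; filled points are called. DNMT3B (0.75) and DNMT1 (−0.31) are filled, and the dotted UHRF1 interval (0.03 to 0.24) uses listed values marked FAIL in 5 of 6 libraries.

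Genes whose products work with these enzymes were read from the same fit. The lists were chosen by function, with earlier results of these data known. Of the 74 tested genes on all lists 15 were called (20.3%), near the 19.9% of all tested genes. Among 19 partners of the methyltransferases and UHRF1, 16 were tested, 3 were called higher and 2 lower (31.2% called), and the median log2 change was 0.02, as over all tested genes (0.02). EHMT2, a histone H3 lysine methyltransferase, rose from 62.0 ± 0.0922 to 95.2 ± 1.01 FPKM (SD, n = 3, log2 change 0.61, limma adjusted p 0.00019). It lies on chromosome 6, and with its neighbours' median removed the change was 0.31 and still called (limma adjusted p 0.00356). HELLS, a chromatin remodeller needed for methylation of repeats, fell from 56.4 ± 7.77 to 41.6 ± 4.08 FPKM (SD, n = 3, log2 change −0.42, limma adjusted p 0.0402). Its call was lost in 8 of the 15 alternatives, at adjusted p up to 0.131, among them leaving out any library but wild type replicate 3.

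UHRF2, the paralog of UHRF1, had an estimate in every library and went down, from 36.5 ± 0.548 to 29.6 ± 0.68 FPKM (SD, n = 3, log2 change −0.29, limma adjusted p 0.00885). UHRF2 lies on chromosome 9, and without its neighbours' median the change was −0.11 and not called (adjusted p 0.189). USP7, a deubiquitinase that stabilises UHRF1 and DNMT1, was at 48.0 ± 2.62 and 56.3 ± 2.22 FPKM (SD, n = 3, log2 change 0.23, limma adjusted p 0.0418). The call of USP7 was lost in 11 of the 15 alternatives, among them leaving out each of the 6 libraries in turn. TRIM28, a corepressor at silenced repeats, had a log2 change of 0.20 (limma adjusted p 0.0466), and its call was lost in 11 alternatives, 5 of which left out 1 library each (all but IK-KO replicate 2). DNMT3L, the catalytically inactive partner of the de novo enzymes, was listed at 0 in all 6 libraries; it was singled out after its values were seen.

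Among 12 genes of TET partners and of 2-oxoglutarate, the cosubstrate of TET enzymes, 11 were tested. Of these, 4 were called higher and 0 lower (36.4% called, against 10.1% higher and 9.75% lower of all tested genes). The median log2 change was 0.21, against 0.02 over all tested genes. Among the uncalled genes, OGT lay wholly above wild type in IK-KO, and IDH3A and OGDH wholly below. Their log2 changes were 0.27, −0.29 and −0.23 (limma adjusted p 0.0826, 0.0773 and 0.106). WT1, a zinc finger factor that binds TET2, rose from 11.2 ± 0.896 to 25.9 ± 1.82 FPKM (SD, n = 3, log2 change 1.15, limma adjusted p 0.000239). Its values were 12.2, 10.9 and 10.4 FPKM in wild type, against 27.7, 25.9 and 24.1 FPKM in IK-KO, with no overlap. IDH1, the cytosolic isocitrate dehydrogenase that makes 2-oxoglutarate, rose from 26.5 ± 1.49 to 35.5 ± 0.796 FPKM (SD, n = 3, log2 change 0.41, limma adjusted p 0.00485). Its mitochondrial counterpart IDH2 rose from 207 ± 4.24 to 240 ± 8.96 FPKM (SD, n = 3, log2 change 0.21, limma adjusted p 0.0175). The call of IDH2 was lost in 3 alternatives, under the replicate block (limma adjusted p 0.0612), with no variance trend (0.0699) and without IK-KO replicate 3 (0.0559).

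CXXC5, a zinc finger protein related to the part of TET proteins that binds CpG, went from 3.78 ± 0.415 to 6.36 ± 1.37 FPKM (SD, n = 3, log2 change 0.61, limma adjusted p 0.0314). Leaving out any library but IK-KO replicate 3 ended its call. The replicate block (limma adjusted p 0.0521) and no filter on low values (0.0983) did so as well. The calls of WT1 and IDH1 held in all 15 alternatives. The TET genes themselves were not called in the same fit.

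Among 14 genes of base excision repair after TET oxidation, 13 were tested. POLB, the gap-filling DNA polymerase, was the only one called (7.69%, against 19.9% of all tested genes). It rose from 47.0 ± 1.22 to 56.8 ± 2.52 FPKM (SD, n = 3, log2 change 0.27, limma adjusted p 0.0148). POLB lost its call when wild type replicate 1 was left out (adjusted p 0.0554) and when IK-KO replicate 1 was (0.0539). In 4 of the 13 the groups did not overlap, against 39.0% of all tested genes. Besides POLB these were NEIL1, NEIL2 and GADD45B, all lower in IK-KO and at low levels (log2 change −0.61, −0.50 and −0.57). They were not called (limma adjusted p 0.108, 0.130 and 0.128). NEIL1 and NEIL2 had IK-KO means of 0.783 and 0.753 FPKM, so they reached the minimum for the test through wild type. Of the 9 tested genes of the methyl-CpG readers, which bind methylated DNA, limma called 0, with 2 at an unadjusted p under 0.05, and 3 of them (33.3%) did not overlap between groups, against 39.0% of all tested genes.

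Among 12 genes of the methionine cycle, which supplies the methyl donor S-adenosylmethionine, 9 were tested, 2 were called higher and 0 lower (22.2% called). MAT2B, a regulatory subunit of the enzyme that makes S-adenosylmethionine, rose from 49.9 ± 3.98 to 65.8 ± 1.81 FPKM (SD, n = 3, log2 change 0.40, limma adjusted p 0.00758). GNMT, which consumes S-adenosylmethionine, rose from 0.894 ± 0.0375 to 2.58 ± 0.247 FPKM (SD, n = 3, log2 change 0.92, limma adjusted p 0.00475). Its wild type values (0.864, 0.936 and 0.882 FPKM) were all under 1 FPKM, so it reached the minimum for the test only through IK-KO. With no filter on low values it kept its call (limma adjusted p 0.0139). GNMT lies on chromosome 6, where its change was 0.55 with the neighbours' median removed, and it was still called (limma adjusted p 0.0433).

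**Figure D5:**
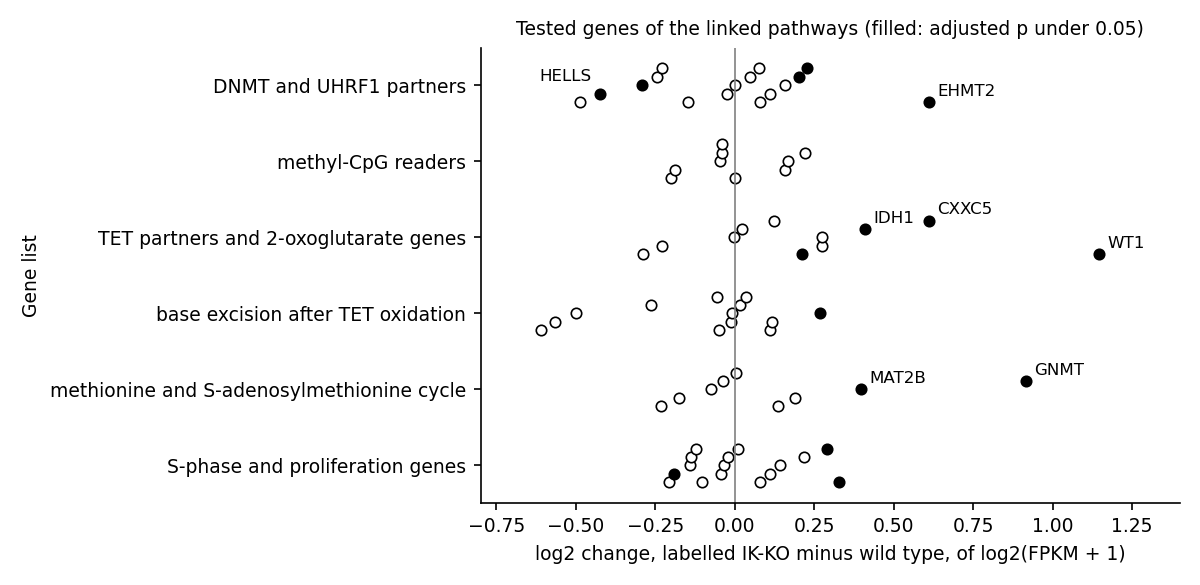
Log2 change (labelled IK-KO minus wild type, on log2(FPKM + 1)) of each tested gene of 6 lists, 1 list per row, filled where called; heights within a row only separate the points. In the row of TET partners and 2-oxoglutarate genes the 4 called genes all lie to the right, up to WT1 at 1.15.

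UHRF1 and DNMT1 are known to be expressed most in dividing cells, so a list of 16 S-phase and proliferation genes was set beside them. All 16 were tested, 2 were called higher (CDT1 and MCM3) and 1 lower (MCM5), which at 18.8% is near the 19.9% of all tested genes, and the median log2 change was −0.03. CDT1, a factor that licenses replication origins, rose from 57.4 ± 3.26 to 72.3 ± 4.59 FPKM (SD, n = 3, log2 change 0.33, limma adjusted p 0.0156). CDT1 lost its call without wild type replicate 2 or IK-KO replicate 2. MCM3 and MCM5, subunits of the replicative helicase, had log2 changes of 0.29 and −0.19 (limma adjusted p 0.00606 and 0.0405). With their neighbours' median removed these were 0.05 and −0.10, and neither was called. MCM5 lost its call in 9 of the 15 alternatives, among them leaving out any library but IK-KO replicate 2. Whether the change of DNMT1 follows proliferation was not tested.

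As a readout downstream of methylation, 20 germline genes that are kept silent in somatic cells by promoter methylation were read. None reached the minimum for the test, and 11 were listed at 0 in all 6 libraries. Their summed means were 0.627 FPKM in wild type, against 0.467 FPKM in IK-KO. The highest over all 6 libraries, SYCP3 (singled out after its values were seen), was at 0.362 ± 0.25 and 0.150 ± 0.139 FPKM (SD, n = 3). In IK-KO alone PRAME had a higher mean, 0.182 FPKM, which came from replicate 1 only (0.547 FPKM). Methylation itself was not measured in these libraries.

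The tested genes most like DNMT3B in their pattern were ARHGEF10 and TUSC3 on chromosome 8 and FNBP1L on chromosome 1. Likeness was the root mean square distance of log2(FPKM + 1), centred per gene, over the 6 libraries. It was 0.0332, 0.0412 and 0.0412, against a median of 0.404 over all tested genes. ARHGEF10, a guanine nucleotide exchange factor, had 9.71, 10.5 and 8.26 FPKM in wild type, against 16.7, 17.5 and 17.0 FPKM in IK-KO. Like DNMT3B, all 3 were higher in every IK-KO library and had their lowest value in wild type replicate 3. They were picked for this likeness, so neither the shared pattern nor the small distances are a separate result. Wild type replicate 3 also had the lowest FPKM sum of the 6 libraries (699352).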

How the data were processed

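Polyadenylated RNA of 3 wild type and 3 IK-KO libraries was analysed, grouped by the labels. The authors deposited 1 FPKM table per library, with confidence bounds and a status. The submitters' processing notes name STAR 2.6.1c, Cufflinks 2.2.1 and hg38. The annotation and strand setting are not given in the sources used here, so antisense and overlapping genes cannot be told apart. All 49727 identifiers shared with GENCODE 44 at the same version lie at its GRCh38 position. DNMT1, DNMT3A, DNMT3B, TET2 and TET3 carry another version there and are outside this count. TET3 starts at 73986404 here and at 73984910 in GENCODE 44. DNMT1 starts at 10133345 against 10133342, and DNMT3B ends at 32809356 against 32809359. Fragment numbers are not used here, so precision is read from the bounds.

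Rows of 1 identifier were summed. The 29 genes with a status other than OK in any library were left out. Changes were tested with limma 3.58.1 in R 4.3.3 on log2(FPKM + 1), which understates changes of low genes. The two-sided test used eBayes with a trend of variance on level and Benjamini-Hochberg adjustment, and was tested on simulated data. The study's methods state a test for mouse RNA-seq only, a two-sample test, which was not used with 3 libraries per group. The genes and lists were chosen with earlier results of these data known. Named genes are the 7 genes, IKZF1, up to 4 called genes per list by size of change, the 3 genes nearest in pattern to the most changed gene, and any overlapping gene with a mean of at least 1 FPKM; others named were chosen after their values were seen. Pairing of libraries by replicate number was not evident, so the main fit is unpaired. The alternatives were another pseudocount, no filter, 2 scalings, a replicate block, 2 treatments of failed estimates, no variance trend, removal of neighbours' changes (median of the 20 nearest tested genes) and leaving out each library. Promoter sequence is shown for DNMT1 only, and the promoter of DNMT3B is not reported here.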

Additional observations from a re-analysis of the deposited data

How the results depend on the processing

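The call of DNMT3B held in all 15 alternatives, and DNMT3A, TET1 and TET2 were called in none. DNMT1 was no longer called with the neighbours' median subtracted (log2 change −0.21), which left 1 of the tested genes of this family called, and without wild type replicate 1, which also left 1. With each library left out in turn its change ranged from −0.36 to −0.26, the number of the family called from 1 to 2, and the number of listed pathway genes called from 9 to 14, against 15 of 74 tested (20.3%) with all libraries. The change of TET3 is so close to 0 that it turned positive without wild type replicate 1 (0.0146), wild type replicate 2 (0.00224) or IK-KO replicate 3 (0.0381), in a range from −0.0454 to 0.0381. The causes were not tested. Over all genes, the number called lay between 1720 and 2803.

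After subtracting group means, libraries with the same number correlated at 0.0669, 0.0248 and 0.00546. Pairing by number was thus not evident, but libraries with different numbers were not compared in this way, so it is not settled. With the replicate block 1805 genes were called, 1742 of them also called without it, and DNMT3B (log2 change 0.75) and DNMT1 (−0.31) kept their calls. The authors' bounds limit TET2 most, at up to 63.1% of the value on each side.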
